A study of Mus musculus with 8 samples.

Results

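Collagen genes were described in the soleus, a slow-twitch muscle of the hind limb, of mice given the oral bacterium Porphyromonas gingivalis or saline. The members were all genes of the array design whose name has the form Col, a number, a and a number, which gave 44 genes measured by 91 probes. Of these, 35 had a probe that passed the filter on dim signals and were tested among 22221 genes. They were divided into 11 genes of fibrillar types (I, II, III, V, XI, XXIV and XXVII), of which 9 were tested, 6 genes of type IV, of which 4 were tested, and 27 genes of other types, of which 22 were tested. The rule that chose them reads gene names alone.

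All mice were C57BL/6J males on a high-fat diet and were 14 weeks old at collection, per the labels. The P. gingivalis group received bacterial cells in 100 µL of saline through a feeding needle over 6 weeks, and the saline group received the vehicle alone. Each group has 4 arrays, each hybridised with Cy3-labelled cRNA from the total RNA of whole muscle. Whether each array came from a separate mouse is not stated, and p-values then reflect only how far these samples spread, which may be technical.

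Collagens are triple-helical proteins of the extracellular matrix. Fibrillar collagens, mainly types I, III and V in muscle, build the fibres of the endomysium, perimysium and tendon, whereas type IV forms the sheet of the basement membrane around each muscle fibre and capillary. The other types include the beaded filaments of type VI, collagens that sit on the surface of fibrils, and the proteoglycan-like types XV and XVIII of basement membranes. Most muscle collagen mRNA comes from fibroblasts, fibro-adipogenic cells, tendon cells and vessel cells rather than from the fibres.

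The values are log2 signals minus the 75th percentile of the same array, and a difference is the P. gingivalis mean minus the saline mean on that scale. All 8 arrays lay on 1 slide, with the saline arrays along one edge and the P. gingivalis arrays along the opposite edge, and an effect of the slide's side cannot be told apart from the group. Groups follow the sample records. In the authors' deposited table each column equals the array recorded under the other group with the same number, and every direction given here would turn if the table's column names were right. The arrays' 75th percentile signals ran from 648 to 764. Myh7, the myosin of slow fibres, lay between 9.12 and 9.37 on every array, while Myh4, the myosin of fast IIB fibres, ranged from 1.95 in saline 1 to 7.70 in saline 3. In whole muscle, fewer cells of a type and less RNA per cell cannot be told apart.

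No collagen gene passed the threshold of 0.05 on limma's adjusted p, and the smallest value was 0.132, for Col18a1. Among all genes tested, 26 passed, or 0.117%. At an unadjusted p under 0.05, 2 collagen genes were lower in the P. gingivalis group, Col5a3 and Col18a1, against a background of 9.66% of all genes. Only Col20a1 was higher at that level, against a background of 10.1%. In 1 gene, Col18a1, every P. gingivalis array lay below every saline array, which held for 6.07% of all genes. In 1 gene, Col20a1, every P. gingivalis array lay above every saline array, which held for 7.35% of all genes. In shares of the 35 collagen genes, the unadjusted limit gave 5.71% lower and 2.86% higher, and neither was above its background.

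The difference had a negative sign in 24 of the 35 collagen genes and a positive sign in 11, with a median of -0.06, beside a median of -0.01 and 52.3% negative signs over all genes. The fibrillar genes had a negative sign in 8 of 9 (median -0.09, and from -0.25 without saline 3 to -0.02 without saline 4), the type IV genes in 3 of 4 (median -0.06) and the other types in 13 of 22 (median -0.07). This split depended on the scaling. With quantile normalization the signs were 18 negative and 17 positive. With scaling to the array median, which moved the median of all genes to 0.14, they were 11 negative and 24 positive, with a fibrillar median of 0.06, and 24 genes lay below the all-gene median.

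**Figure D1:**
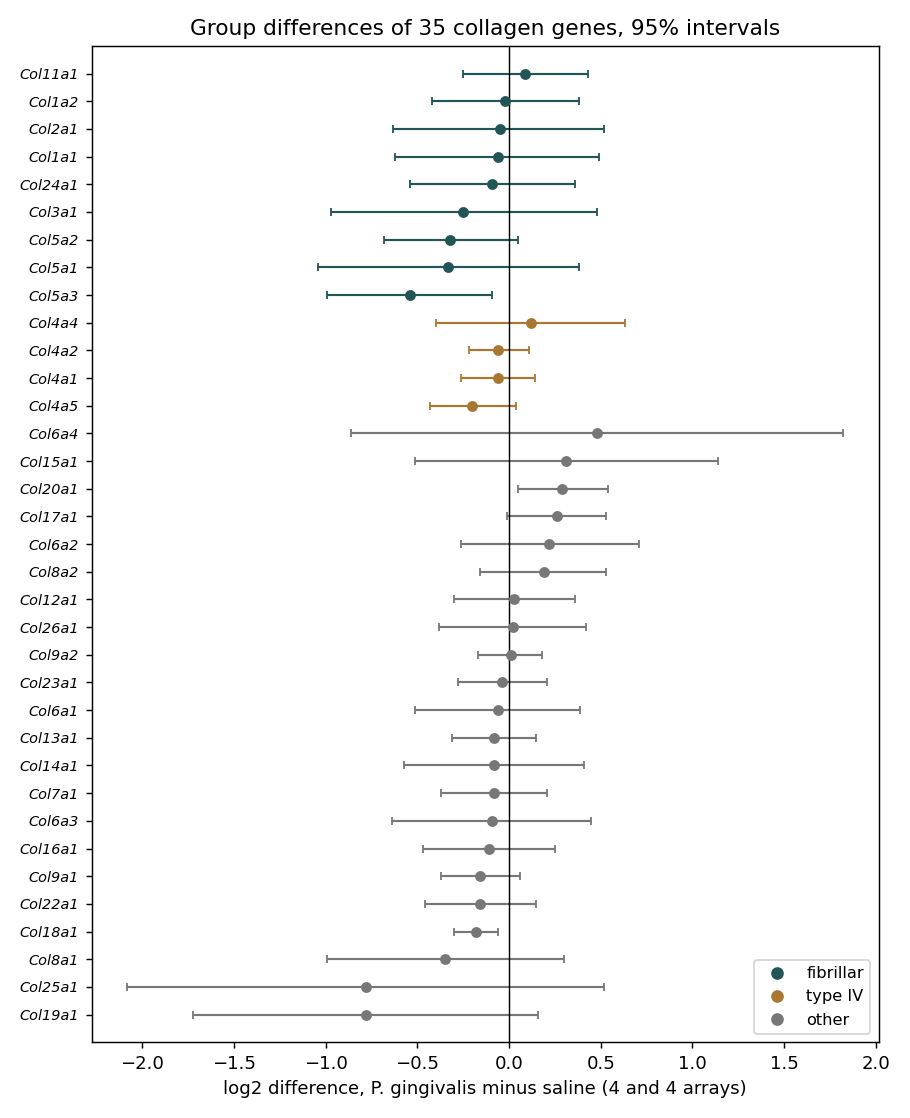
Log2 difference of each of the 35 tested collagen genes, P. gingivalis minus saline (4 and 4 arrays), with its 95% interval from limma, coloured by class. The intervals of Col5a3, Col18a1 and Col20a1 exclude 0, and those of Col25a1, Col6a4 and Col19a1 are the widest.

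Col1a1 and Col1a2 encode the chains of type I collagen, the main tensile collagen of tendon and perimysium. Col1a1 measured 3.45, 3.41, 3.17 and 3.89 in saline 1 to 4, and 3.15, 2.96, 3.60 and 3.95 in P. gingivalis 1 to 4. Its difference was -0.06 ± 0.24 (SE, n = 4 per group; limma adjusted p = 0.905). Col1a2 measured 5.29, 5.29, 4.95 and 5.48 in saline, and 5.13, 4.86, 5.35 and 5.60 in P. gingivalis (-0.02 ± 0.17, adjusted p = 0.961). Both genes were highest in P. gingivalis 4 and saline 4 and lowest in P. gingivalis 2, so the groups overlapped throughout. The 95% interval of the Col1a1 difference, -0.62 to 0.49, allows changes of either sign.

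Col3a1 encodes the chain of type III collagen, which forms thin fibrils together with type I. It measured 3.58, 4.53, 3.5 and 4.78 in saline, and 3.88, 3.43, 4.04 and 4.05 in P. gingivalis (difference -0.25 ± 0.31, adjusted p = 0.693). The saline arrays fell into a high pair, saline 2 and 4, and a low pair, saline 1 and 3, and the P. gingivalis arrays lay within their range except P. gingivalis 2, slightly below it. The SD was 0.65 in saline and 0.29 in P. gingivalis.

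Type V collagen is a minor component that sets the diameter of type I fibrils. Col5a1 showed the same saline split, at 1.25, 2.29, 1.02 and 2.18, with 1.38, 0.99, 1.57 and 1.49 in P. gingivalis (-0.33 ± 0.31, adjusted p = 0.577). Col5a2 measured -2.51, -2.06, -2.31 and -2.03 in saline, and -2.23, -2.87, -2.60 and -2.49 in P. gingivalis (-0.32 ± 0.16, adjusted p = 0.315). For Col5a2, saline 2 and 4 were the highest of all arrays and P. gingivalis 2 the lowest.

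Col5a3, the chain of type V that is most restricted in tissue distribution, had the largest difference of the fibrillar genes. It measured 1.32, 1.71, 1.14 and 2.09 in saline (mean 1.57 ± 0.42, SD), and 0.96, 0.97, 1.15 and 1.03 in P. gingivalis (mean 1.03 ± 0.09). The P. gingivalis arrays lay close together, and the groups overlapped only because P. gingivalis 3 was slightly above saline 3. The difference was -0.54 ± 0.19 (95% interval -0.99 to -0.09), a ratio of 0.688, with a limma p of 0.0243 and an adjusted p of 0.19. The probe lies at chromosome 9, 20574592 to 20574651 (mm9, per the files). A second probe of the gene, above background on 7 arrays, differed by -0.11, and with the mean of both probes the difference was -0.33. Without single arrays the difference ranged from -0.68 to -0.36. In the authors' deposited table the row under this probe of Col5a3 has a log2 difference of 0.22 and an adjusted p of 0.355. Its columns are named the other way round. With the deposited processing rebuilt from the arrays, the probe differed by -0.50 (limma adjusted p = 0.166), with groups by the sample records. Why these sizes differ was not tested.

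The remaining fibrillar genes lay nearer to 0. Col2a1, the chain of cartilage type II collagen, differed by -0.05 ± 0.25, Col11a1, a type XI chain, by 0.09 ± 0.15, and Col24a1, the chain of type XXIV, by -0.09 ± 0.20, with limma adjusted p-values of 0.921, 0.774 and 0.828. Col11a1 was the fibrillar gene with a positive sign, but its kept probes differed in sign. Col11a2, the other type XI chain, was not tested because its probe that was above background on all 8 arrays carried an outlier flag on saline 1. With that spot set missing the difference was -0.23 ± 0.19 (adjusted p = 0.544, 7 arrays for this gene). Col27a1, the other untested fibrillar gene, had no probe that passed the filter.

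**Figure D2:**
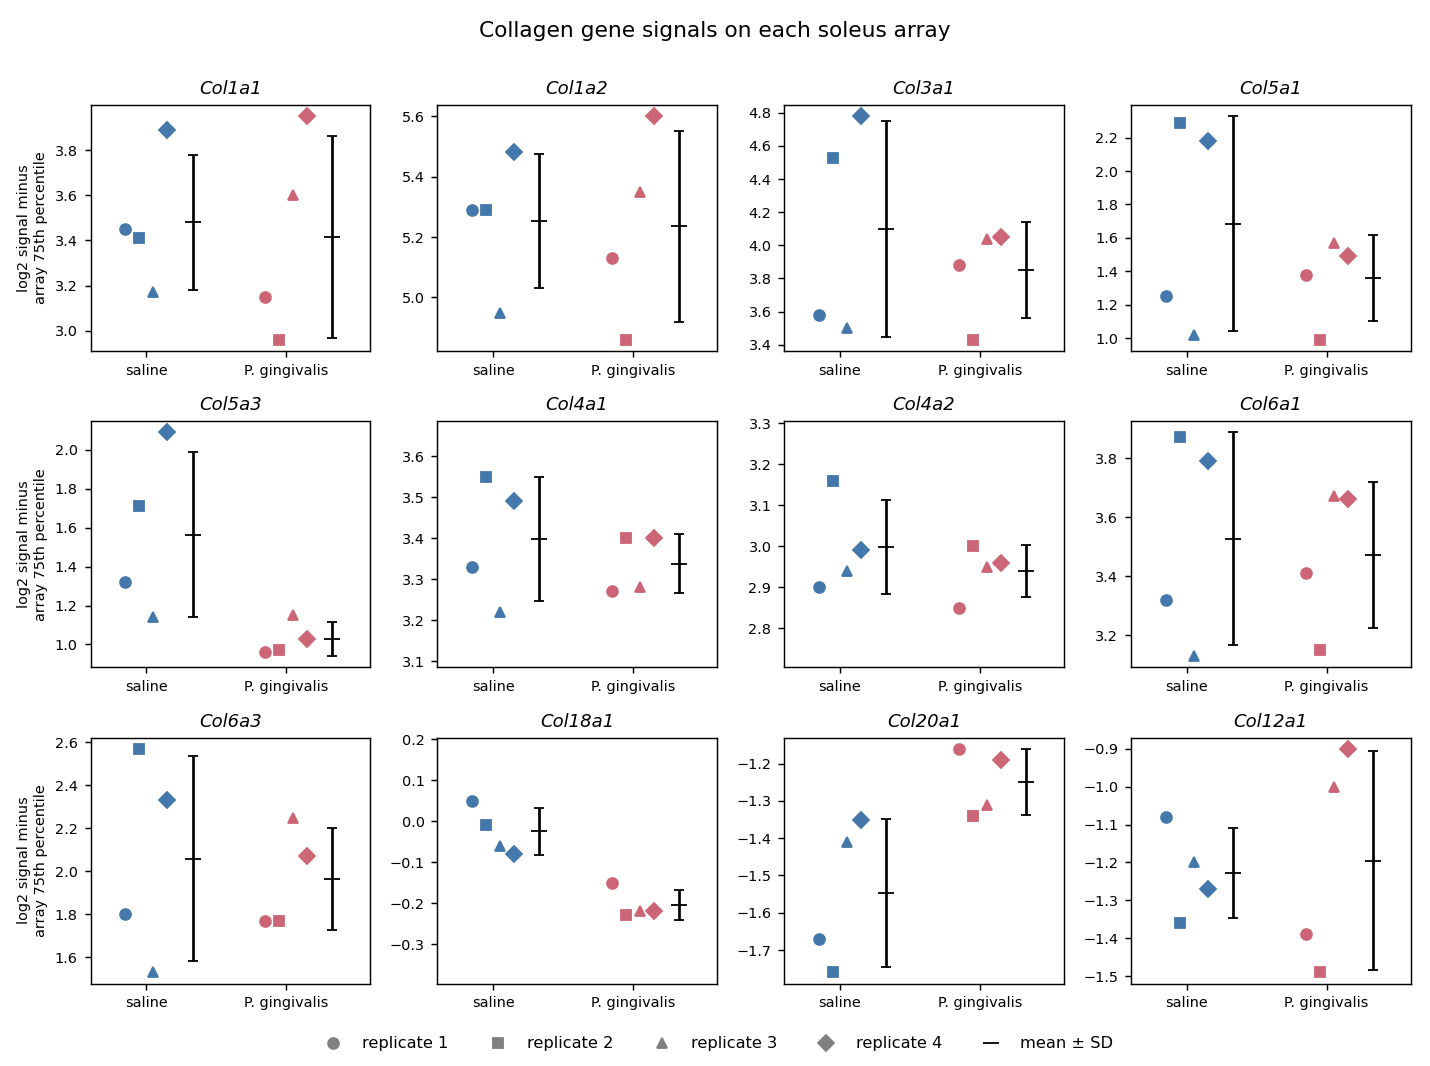
Log2 signal minus the array's 75th percentile for 12 collagen genes, 1 point per array with the marker shape giving the replicate number, beside the mean ± SD of 4 arrays per group; the vertical scale differs between panels. Groups overlap in every panel but those of Col18a1, lower in P. gingivalis, and Col20a1, higher in P. gingivalis.

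Type IV collagen of muscle is built mainly from the products of Col4a1 and Col4a2. Col4a1 measured 3.33, 3.55, 3.22 and 3.49 in saline, and 3.27, 3.40, 3.28 and 3.40 in P. gingivalis. Its difference was -0.06 ± 0.08 (95% interval -0.26 to 0.14, limma adjusted p = 0.724). Col4a2 measured 2.90, 3.16, 2.94 and 2.99 in saline, and 2.85, 3.0, 2.95 and 2.96 in P. gingivalis (-0.06 ± 0.07, adjusted p = 0.678). The P. gingivalis arrays of both genes lay within or just below the range of the saline arrays, and the spread over all arrays was narrower than that of the fibrillar genes. The mean signal over the genes of a class had an SD between arrays within groups of 0.08 for type IV and 0.24 for the fibrillar genes. These SDs are of class means, not of single genes, and were not tested against each other.

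The other type IV chains are used in specialised basement membranes such as those of the kidney glomerulus. Col4a5 differed by -0.20 ± 0.10 (adjusted p = 0.327), whereas a second probe of the gene, above background on 7 arrays, differed by 0.19. Col4a4 differed by 0.12 ± 0.22 (adjusted p = 0.799) and was above background on 1 saline array and on 4 P. gingivalis arrays. Over all probes, 30210 to 34111 were above background on the saline arrays and 34857 to 35400 on the P. gingivalis arrays, so such counts of arrays differ between the groups in general. Col4a3 and Col4a6 had no probe that passed the filter.

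Col15a1 and Col18a1 encode the multiplexin collagens, which link basement membranes to the matrix around them, and the C-terminal fragment of type XVIII is endostatin. Col18a1 measured 0.05, -0.01, -0.06 and -0.08 in saline (mean -0.03 ± 0.06, SD), and -0.15, -0.23, -0.22 and -0.22 in P. gingivalis (mean -0.20 ± 0.04). The groups did not overlap, and saline 4 and P. gingivalis 1 lay nearest to each other. The difference was -0.18 ± 0.05 (95% interval -0.30 to -0.06), a ratio of 0.884, with a limma p of 0.00902 and an adjusted p of 0.132. The probe lies at chromosome 10, 76515820 to 76515879 (mm9), and is the only probe of the gene that was kept. With scaling to the array median the difference was -0.03, where the median of all genes was 0.14. In the authors' deposited table Col18a1 has a log2 difference of 0.25 and an adjusted p of 0.0629, with the columns named the other way round.

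Markers of endothelial cells were measured beside these genes. All 6 were above background on every array, 4 had a negative sign and 2 a positive sign, and 0 passed limma's threshold (at an unadjusted p under 0.05, 2 were lower, or 33.3%, beside 9.66% of all genes, and 1 was higher, or 16.7%, beside 10.1%). Their mean deviation from each gene's own average was 0.01 to 0.13 on the saline arrays and -0.21 to 0.09 on the P. gingivalis arrays. Egfl7, an endothelial secreted protein, differed by -0.40 ± 0.07 (limma adjusted p = 0.0594), and Kdr, the main VEGF receptor, by -0.55 ± 0.10 (adjusted p = 0.0643). Pecam1, an endothelial adhesion protein, differed by 0.18 ± 0.07 (adjusted p = 0.238). Their part in the values of Col18a1 and of the type IV genes was not tested.

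Col15a1 measured -4.90, -3.81, -4.85 and -4.03 in saline, and -4.81, -4.32, -3.62 and -3.60 in P. gingivalis. It was above background on 2 saline arrays and on 4 P. gingivalis arrays, so its difference of 0.31 ± 0.36 (adjusted p = 0.657) rests partly on signals near background. A second probe of the gene differed by -0.76, and the sign turned with the mean of both probes.

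Type VI collagen forms beaded filaments at the surface of muscle fibres, and loss of its chains causes muscular dystrophies. Col6a1 measured 3.32, 3.87, 3.13 and 3.79 in saline, and 3.41, 3.15, 3.67 and 3.66 in P. gingivalis (-0.06 ± 0.19, adjusted p = 0.897). Col6a3 measured 1.80, 2.57, 1.53 and 2.33 in saline, and 1.77, 1.77, 2.25 and 2.07 in P. gingivalis (-0.09 ± 0.24, adjusted p = 0.853). Both had the saline split already seen in Col3a1 and Col5a1, with saline 2 and 4 as the highest arrays. Col6a2 measured 0.51, 1.24, 0.56 and 1.29 in saline, and 1.03, 0.87, 1.28 and 1.29 in P. gingivalis. Its difference of 0.22 ± 0.21 (adjusted p = 0.583) went with low values in saline 1 and 3, and its other kept probes differed by 0.22 and 0.08. Col6a4, a chain whose human counterpart is broken, stood at -2.55 in P. gingivalis 1 against -5.51 to -4.45 in the rest of that group, and differed by 0.48 ± 0.58. Col6a5 and Col6a6 were not kept.

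Several collagens bind to the surface of fibrils and carry tissue-specific roles. Col12a1, found in tendon and fascia under tension, measured -1.08, -1.36, -1.20 and -1.27 in saline, and -1.39, -1.49, -1.0 and -0.90 in P. gingivalis (0.03 ± 0.14, adjusted p = 0.922). The P. gingivalis arrays split into a low pair, 1 and 2, and a high pair, 3 and 4, outside the saline range on either side. Col14a1, which also coats fibrils, measured -3.27, -2.37, -3.18 and -2.65 in saline, and -2.93, -3.21, -2.71 and -2.95 in P. gingivalis (-0.08 ± 0.21, adjusted p = 0.857). Col22a1, a collagen of the muscle-tendon junction, measured 2.24, 2.02, 2.42 and 1.97 in saline, and 1.89, 1.81, 2.08 and 2.25 in P. gingivalis (-0.16 ± 0.13, adjusted p = 0.54). The groups of Col14a1 and of Col22a1 overlapped.

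Col20a1 belongs to the same structural group. It measured -1.67, -1.76, -1.41 and -1.35 in saline (mean -1.55 ± 0.20, SD), and -1.16, -1.34, -1.31 and -1.19 in P. gingivalis (mean -1.25 ± 0.09). Every P. gingivalis array lay above every saline array, although P. gingivalis 2 exceeded saline 4 by little. The difference was 0.29 ± 0.10 (95% interval 0.05 to 0.54), a ratio of 1.23, with a limma p of 0.0228 and an adjusted p of 0.186. The probe lies at chromosome 2, 180752070 to 180752129 (mm9). With scaling to the array median the difference was 0.44 and passed the threshold (adjusted p = 0.0474), in a fit that called 2385 genes in all against 26 with the 75th percentile.

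The other fibril-associated genes differed by -0.78 ± 0.40 (Col19a1), -0.16 ± 0.09 (Col9a1), 0.01 ± 0.08 (Col9a2) and -0.11 ± 0.15 (Col16a1), with limma adjusted p-values of 0.328, 0.396, 0.978 and 0.721. Col19a1, whose product is found at muscle and nerve basement membranes, was -4.65 to -4.11 in saline and -6.39 to -4.24 in P. gingivalis, and was above background on 3 of the 4 P. gingivalis arrays.

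The network-forming, anchoring and transmembrane members likewise gave no call. Col8a1, a network collagen of vessel walls, was 1.97 to 3.19 in saline and 1.98 to 2.48 in P. gingivalis (-0.35 ± 0.28, adjusted p = 0.523), again with saline 2 and 4 on top. Col8a2, its partner chain, differed by 0.19 ± 0.15, and Col17a1, a transmembrane collagen of hemidesmosomes, by 0.26 ± 0.12 (adjusted p = 0.519 and 0.27). Col7a1, the collagen of anchoring fibrils in skin, and Col13a1, a transmembrane collagen of the neuromuscular junction, both differed by -0.08, with SEs of 0.13 and 0.10. A second kept probe of Col13a1, above background on all 8 arrays, differed by -0.29. Col23a1 and Col26a1 differed by -0.04 ± 0.11 and 0.02 ± 0.17. Col25a1, a transmembrane collagen that muscle fibres need for innervation, ranged from -4.71 in saline 2 to -1.66 in saline 1, an 8.31-fold span within 1 group, against -4.32 to -3.76 in P. gingivalis (-0.78 ± 0.56, adjusted p = 0.474). Col10a1, Col28a1 and Col9a3 were not kept.

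Of the 35 tested genes, 30 were above background on all 8 arrays, and 0 of their probes were saturated on any array. Among the 16 genes with more than 1 kept probe, the probes had the same sign in 11 and opposite signs in 5, namely Col11a1, Col15a1, Col23a1, Col26a1 and Col4a5. The median spread between probes of a gene was 0.16 and the largest 1.07. The probe coordinates are those of the files, and their place in exons or untranslated regions was not analysed here. The authors' deposited table holds 49 rows for 36 collagen genes, and 0 of them had an adjusted p under 0.05, against 1.53% of all its rows.

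The arrays of a group differed among themselves in the collagen genes. The mean deviation of the 9 fibrillar genes was -0.11, 0.22, -0.16 and 0.40 in saline 1 to 4, and -0.11, -0.36, -0.04 and 0.16 in P. gingivalis 1 to 4. Saline 4 and saline 2 were therefore the highest arrays and P. gingivalis 2 the lowest, with the others between. For the type IV genes the same means stayed between -0.10 and 0.14.

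**Figure D3:**
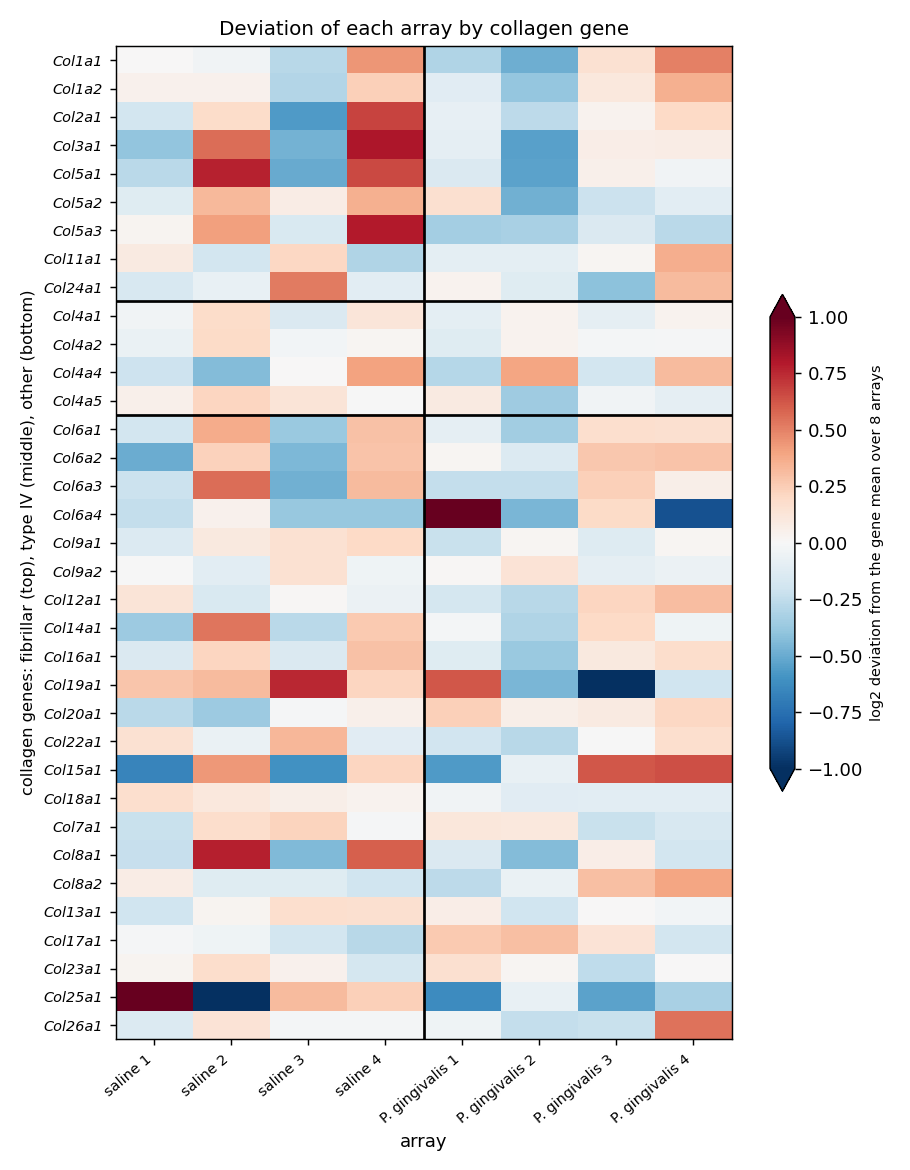
Heat map of each collagen gene's log2 deviation from its own mean over 8 arrays (colour, limited to -1 to 1), with genes as rows, ordered fibrillar, type IV and other, and arrays as columns, saline left of the vertical line. Saline 2 and 4 carry red cells for Col3a1, Col5a1, Col6a1, Col6a3 and Col8a1, and P. gingivalis 2 carries blue cells for most fibrillar genes.

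Chains that assemble into 1 protein were compared across the 8 arrays. Col1a1 and Col1a2 had a Pearson r of 0.96 (exact permutation p = 0.000372, adjusted 0.00285 over 10 pairs) and a Spearman rho of 0.95 (adjusted 0.0057). The r was 0.96 within groups and 0.94 without saline 4 and P. gingivalis 4. Col6a1 and Col6a3 had an r of 0.95 (exact permutation p = 0.00057, adjusted 0.00285) and a rho of 0.98 (adjusted 0.00397), with 0.95 within groups and 0.96 without the arrays farthest from the median. The arrays ranked almost alike in the chains of each of these pairs, with the groups intermixed.

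Col4a1 and Col4a2 had an r of 0.81 (exact permutation p = 0.0098, adjusted 0.0245), 0.79 within groups and 0.75 without saline 2 and saline 3. Their rho of 0.81 did not pass after adjustment (0.0726). Col6a1 and Col6a2 had an r of 0.85 (exact permutation p = 0.00898, adjusted 0.0245) and a rho of 0.71 (adjusted 0.115), with an r of 0.83 without saline 3 and P. gingivalis 2. Within groups that r was 0.95.

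The other pairs did not pass. Col3a1 and Col5a2, neighbouring genes on chromosome 1, had an r of 0.73 (exact permutation p = 0.0393, adjusted 0.067), and Col5a1 and Col5a2 had an r of 0.73 (p = 0.0402 in the exact permutation test, adjusted 0.067). Without saline 2 and 4 these values were 0.27 and 0.22, so both rest on those arrays. Col1a1 and Col3a1 had an r of 0.67 (exact permutation, adjusted 0.0876), and Col1a1 and Serpinh1, the collagen chaperone HSP47, an r of 0.69 (adjusted 0.0845). Col1a1 and Col4a1, from fibrils and basement membrane, had an r of 0.36 (adjusted 0.367), and Col15a1 and Col18a1 an r of -0.47 (adjusted 0.251). All genes of an array share its labelling, hybridisation and scaling.

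**Figure D4:**
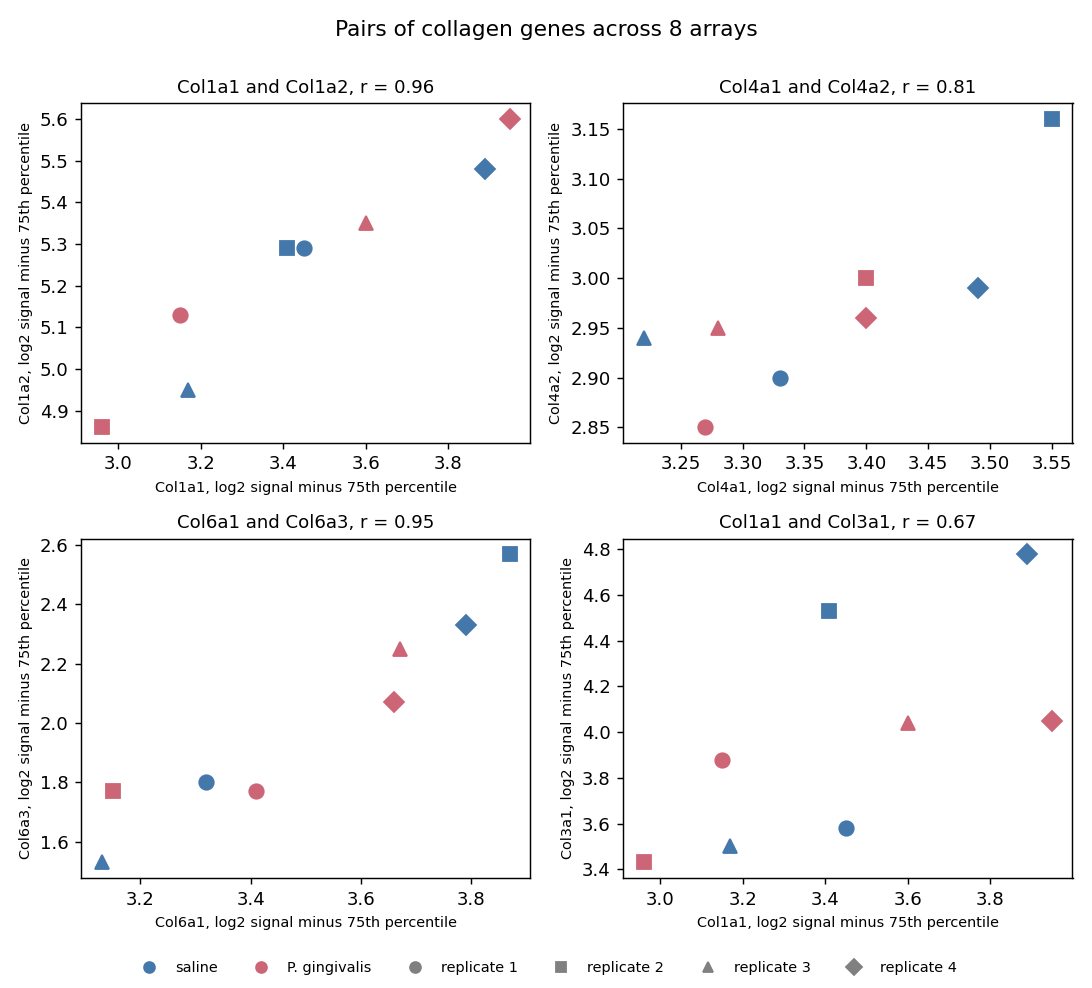
Log2 signal minus the array's 75th percentile of one gene against another over 8 arrays, for 4 pairs, with colour giving the group and shape the replicate number. The points of Col1a1 with Col1a2 and of Col6a1 with Col6a3 lie along a line (r 0.96 and 0.95), and those of Col1a1 with Col3a1 scatter more widely (r 0.67).

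Promoter sequences are shown for genes of these pairs. Of the 44 genes, 35 matched a RefSeq promoter table (GRCm38.p6, 300 bases around the gene start), with 38 promoters. Capitals mark 3 motifs on either strand. The TATA box was searched as TATAAA. The CCAAT box was searched as its own letters, and the GC box as GGGCGG. Col1a2 at chr6:4505368-4505667, plus strand, stands for type I, since Col1a1 is not listed in the table. Col3a1 at chr1:45311288-45311587, plus strand, stands for the genes with the saline split. Col4a1 at chr8:11312777-11313076, minus strand, and Col4a2 at chr8:11312555-11312854, plus strand, are transcribed in opposite directions from a shared promoter region, and their windows overlap by 78 bases.
Col1a2: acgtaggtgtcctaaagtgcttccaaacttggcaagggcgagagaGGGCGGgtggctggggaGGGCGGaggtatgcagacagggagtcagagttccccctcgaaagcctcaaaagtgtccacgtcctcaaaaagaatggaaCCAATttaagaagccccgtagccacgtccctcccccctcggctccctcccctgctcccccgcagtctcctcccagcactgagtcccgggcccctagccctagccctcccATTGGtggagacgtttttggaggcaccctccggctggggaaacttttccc
Col3a1: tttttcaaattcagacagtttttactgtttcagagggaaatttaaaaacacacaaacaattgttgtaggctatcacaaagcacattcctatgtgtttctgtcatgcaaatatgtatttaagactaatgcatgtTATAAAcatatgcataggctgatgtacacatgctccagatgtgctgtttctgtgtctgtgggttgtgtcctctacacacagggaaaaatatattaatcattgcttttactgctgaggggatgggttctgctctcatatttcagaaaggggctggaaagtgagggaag
Col4a1: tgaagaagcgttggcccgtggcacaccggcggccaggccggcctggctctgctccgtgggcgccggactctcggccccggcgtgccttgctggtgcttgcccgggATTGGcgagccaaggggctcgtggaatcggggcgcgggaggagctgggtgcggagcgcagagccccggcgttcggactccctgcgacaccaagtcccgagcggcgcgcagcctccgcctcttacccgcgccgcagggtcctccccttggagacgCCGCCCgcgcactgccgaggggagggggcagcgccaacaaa
Col4a2: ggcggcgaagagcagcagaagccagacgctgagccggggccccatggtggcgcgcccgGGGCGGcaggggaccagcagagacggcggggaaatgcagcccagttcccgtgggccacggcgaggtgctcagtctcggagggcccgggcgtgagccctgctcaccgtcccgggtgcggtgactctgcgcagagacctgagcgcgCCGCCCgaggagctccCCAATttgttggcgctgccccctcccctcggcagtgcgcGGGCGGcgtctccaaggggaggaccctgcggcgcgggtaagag

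The Col1a2 window holds the letters of the CCAAT and GC boxes but not of the TATA box. The Col3a1 window holds those of the TATA box alone, with their first base at -117 from the gene start. Both type IV windows hold the CCAAT and GC box letters and no TATA box letters. Over the 38 collagen promoters, the TATA box letters were in 13.2%, the CCAAT box in 34.2% and the GC box in 60.5%, beside 13.6%, 37.4% and 35.7% of all 32851 promoters of the same length. A match describes letters in the window and does not show a bound factor.

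Markers of fibroblasts and tendon cells were set against the collagen genes, a comparison chosen after the values had been seen. All 7 fibroblast markers were above background on every array, 2 had a negative and 5 a positive sign, and 0 passed limma's threshold (0 at an unadjusted p under 0.05). Their mean deviation was -0.10, 0.20, -0.29 and 0.21 in saline 1 to 4, and -0.04, -0.29, 0.18 and 0.12 in P. gingivalis 1 to 4. The arrays with high fibroblast markers included saline 2 and 4, and the lowest were saline 3 and P. gingivalis 2.

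At exact permutation p under 0.05, 12 of 35 collagen genes (34.3%) had a positive r with the fibroblast level, beside 3.91% of all genes. At that limit 1 (2.86%) had a negative r, beside 2.92%. Several collagen genes vary together across arrays, so these 12 are not separate results. Only the fibroblast and tendon cell levels were correlated with the collagen genes. Whether the relation is particular to fibroblast markers was not tested. Of 70 relations between a collagen gene and a marker level, 6 passed after adjustment over the 70, each with the fibroblast level. Col6a1 had an r of 0.98 (exact permutation, adjusted 0.00868; rho 0.98), which was 0.97 without saline 3 and P. gingivalis 2. Col16a1 had an r of 0.92 (adjusted 0.0334), Col6a3 0.90 (adjusted 0.044), Col3a1 0.89 (adjusted 0.044) and Col2a1 0.87 (adjusted 0.0334), with 0.94, 0.91, 0.85 and 0.77 without the same arrays. Col9a2 had an r of -0.95 (adjusted 0.0334) and -0.83 without them, but its rho of -0.83 did not pass (adjusted 0.108). The values over 8 arrays mix both groups, and within groups the r was 0.98 for Col6a1 and 0.92 for Col3a1. Col1a2 and Col5a1 had an r of 0.86 and 0.88 with the fibroblast level (exact permutation, adjusted 0.0673 and 0.0588). By rank, Col5a1 and Col8a1 passed, each with a rho of 0.95 (exact permutation, adjusted 0.016).

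No collagen gene passed in its relation with the tendon cell markers after adjustment. At an exact permutation p under 0.05, 3 of the 35 (8.57%) had a positive r with their level, beside 1.28% of all genes, and 0 had a negative r, beside 1.35%. All 7 markers were above background on every array, 5 had a negative and 2 a positive sign, and 0 passed limma's threshold. At an unadjusted limma p under 0.05, 1 was lower, or 14.3%, beside 9.66% of all genes. The mean deviation of the 7 markers ran from -0.31 to 0.32 in saline and from -0.41 to 0.37 in P. gingivalis. Col22a1, Col11a1 and Col12a1 had the highest r with this level, at 0.86, 0.78 and 0.75 (exact permutation, adjusted 0.0677, 0.124 and 0.194), and an r of -0.15, -0.28 and 0.34 with the fibroblast level. Scx, the transcription factor of tendon cells, differed by -0.22 ± 0.08 (limma adjusted p = 0.178). The part of fibroblast and tendon cell content in the collagen values was not tested beyond these relations.

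**Figure D5:**
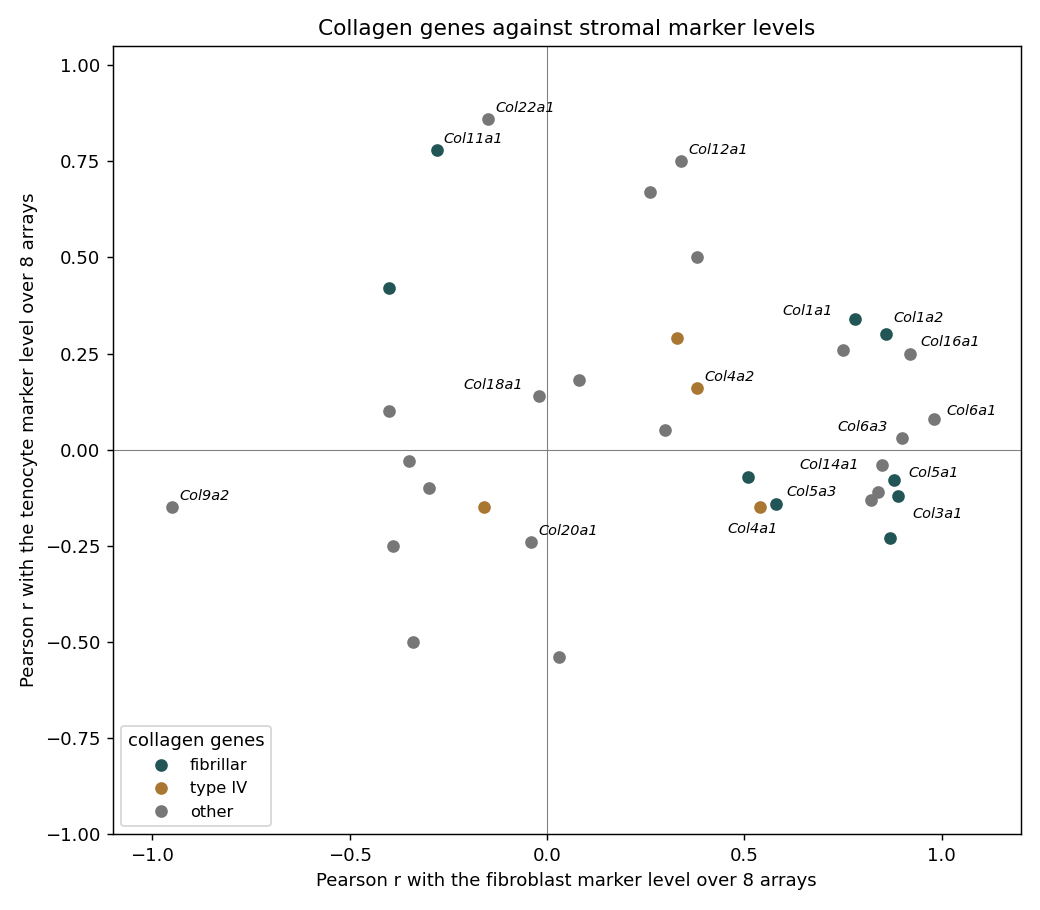
Pearson r over 8 arrays of each of 35 collagen genes with the mean fibroblast marker level (horizontal) and the mean tendon cell marker level (vertical), coloured by class. Col6a1 lies at the right edge (r 0.98), Col9a2 at the left (r -0.95), and Col22a1 at the top (r 0.86 with tendon cell markers).

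Macrophage markers also varied between arrays, with a mean deviation of -0.64 to 0.74 in saline and -0.56 to 0.11 in P. gingivalis. Saline 2 and 4 were again the highest (0.74 and 0.64), and saline 3 and P. gingivalis 2 the lowest (-0.64 and -0.56), as for fibroblast markers. The collagen genes were not correlated with the macrophage level. All 5 macrophage markers had a negative sign, and all were above background on every array. Of them, 0 passed limma's threshold or an unadjusted p under 0.05. Adipocyte markers were highest in saline 1 (0.77) and P. gingivalis 2 (0.88). Without saline 1 and P. gingivalis 3, the arrays with the lowest fast fibre markers (-1.51 and -0.82), 24 collagen genes again had a negative sign, and Col15a1 turned to -0.01. In that fit 0 collagen genes and 0 of all 22221 genes passed the threshold. The part of these cells in the collagen values was not tested.

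The genes that act on collagens gave no call in limma either. At an unadjusted p under 0.05, 1 assembly gene (5.0%), 3 processing genes (27.3%) and 1 of 9 turnover genes were lower, beside 9.66% of all genes. At the same limit 1 of 9 turnover genes and 3 genes of collagen induction (27.3%) were higher, beside 10.1% of all genes, and 0 receptors were called in either direction. These lists were chosen with earlier results of these data known. Over all genes 52.3% had a negative sign. The sign counts of the pathway and marker lists are given for the main scaling only. Scaling to the array median moved the median of all genes from -0.01 to 0.14, so small differences could change sign. Of 20 assembly enzymes and chaperones, all tested, 13 had a negative and 7 a positive sign, with a median of -0.02. P4ha3, a proline hydroxylase subunit, measured -4.61, -4.68, -4.66 and -4.57 in saline, and -4.98, -5.67, -5.55 and -5.12 in P. gingivalis. Its groups did not overlap, in 1 of the 20 genes beside 6.07% of all genes, and the difference was -0.70 ± 0.15 (limma adjusted p = 0.0836). It was above background on 3 arrays of each group, so the size of the difference rests partly on signals near background. Serpinh1 differed by -0.16 ± 0.11 (adjusted p = 0.454), and Sparc, a collagen-binding matrix protein, by -0.16 ± 0.07 (adjusted p = 0.273).

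Of 12 processing and cross-linking genes, 11 were tested, and 10 had a negative sign, with a median of -0.23. Lox, lysyl oxidase, which cross-links fibrils, measured 0.61, 0.49, 0.21 and 0.19 in saline, and -0.37, -0.09, 0.13 and -0.18 in P. gingivalis. The groups did not overlap, and the difference was -0.50 ± 0.14 (adjusted p = 0.119). Of the 11 genes, 1 was lower without overlap, which held for 6.07% of all genes. Bmp1, the C-propeptidase of procollagens, differed by -0.32 ± 0.11 (adjusted p = 0.179) and Tll1, a related protease, by -0.23 ± 0.09 (adjusted p = 0.219). These were the 3 genes of the list with an unadjusted p under 0.05.

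Of 11 turnover genes, 9 were tested, with a negative sign in 7 (median -0.15). Timp1, an inhibitor of matrix metalloproteinases, measured 0.81, 0.76, 0.63 and 0.63 in saline, and 0.08, 0.14, 0.65 and -0.07 in P. gingivalis, where the third array stood with the saline values. Its difference was -0.50 ± 0.15 (adjusted p = 0.136). Timp3, a matrix-bound inhibitor of the same family, had the opposite sign, at 0.24 ± 0.09 (adjusted p = 0.226). Of 9 collagen receptors, 8 were tested, with a negative sign in 7 and a median of -0.11. The smallest p-values were those of Itga1 (-0.13 ± 0.10, limma adjusted p = 0.504), Ddr2 (-0.16 ± 0.13, adjusted p = 0.521) and Itga11. The last, a fibroblast integrin chain, differed by -0.27 ± 0.25 (adjusted p = 0.571). Lair1 and Gp6, both with a negative sign, were not above background on all arrays.

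The genes of the pathway that induces collagen synthesis, TGF-beta signalling and its targets, had 6 negative and 5 positive signs among 11 tested (median -0.08). The negative signs were those of Tgfb1 (-0.10), Tgfb2 (-0.08), Tgfb3 (-0.14), Smad2 (-0.17), Smad4 (-0.13) and Smad7. The last, an inhibitor of the pathway, differed by -0.16 ± 0.09 (limma adjusted p = 0.374). The activity of the pathway was not tested. Tgfbr1, a TGF-beta receptor chain, measured 0.73, 0.80, 0.92 and 0.88 in saline, and 1.25, 1.14, 1.09 and 1.21 in P. gingivalis. Its groups did not overlap, with a difference of 0.34 ± 0.06 (adjusted p = 0.0684). Ccn2, the matrix growth factor CTGF, differed by 0.22 ± 0.06 (adjusted p = 0.123), and Smad3, a signal carrier of that receptor, by 0.19 ± 0.08 (adjusted p = 0.237), both without overlap. These 3 of 11 induction genes were higher without overlap, which held for 7.35% of all genes. Col1a1, Col1a2 and Col3a1, known targets of this pathway, differed by -0.06, -0.02 and -0.25 on the same arrays, each within its spread between arrays.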

How the data were processed

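Spot intensity values, deposited per array, came from Agilent Feature Extraction, version 11.0.1.1 per the file headers and 11.1 per the submitters' processing notes, with background already subtracted per the file headers. Signals were converted to log2 and the 75th percentile of the array's non-control spots was subtracted. Spots of controls and spots flagged as outliers were dropped (239 probes were missing on at least 1 array), spots of a probe were averaged, and 33636 of 56605 probes were kept as well above background on at least 4 arrays. The kept probe with the greatest average signal stood for its gene. Groups were compared over all 22221 genes with limma 3.58.1 under R 4.3.3 (lmFit, then eBayes, without covariates, two-sided, Benjamini-Hochberg adjustment, threshold 0.05), a step checked on simulated data. Correlations used exact permutation over all 40320 pairings of 8 arrays, in Python 3.11.15 with scipy 1.17.1.

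The deposited table holds log2 values, log2 differences and p-values by the authors for 28250 rows. Its 2 deposited statistic columns hold a score and stayed unused here. Each of its columns equals the array of the other group with the same number, with a median absolute difference of 3.55e-15 over 21838 rows, against 0.15 to 0.177 to the array it is named for. The sample records supplied the groups used, and the sources do not settle which assignment holds.

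The members, their classes, the pathway and marker lists and the alternatives were chosen with earlier results of these data known. The rule for values on every array named 16 collagen genes, plus any other member past the threshold or with an unadjusted p under 0.05 and groups without overlap, which added Col20a1. Values of single arrays for P4ha3, Lox, Timp1 and Tgfbr1 were chosen as the smallest p of their lists. Precision is limited by the number of arrays. Other settings tried were the scaling, background correction, dim-probe filter, choice of probe, replicate block, variance model, array weights and arrays left out.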

Additional observations from a re-analysis of the deposited data

Results flagged for a closer look

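Among 70 sets of 4 arrays, 1 per collagen gene and group, 2 held an array that stood apart by Dixon's gap test, which compares the gap to the nearest array with the whole range. Chance gives about 1 in 20 such sets. Col24a1, the chain of fibrillar type XXIV collagen, measured -2.41 in saline 3 against -3.0 in the nearest saline array and -3.09 in the farthest, so the gap was 0.86 of the range. Col18a1 measured -0.15 in P. gingivalis 1 against -0.22 in the nearest array and -0.23 in the farthest, a gap of 0.88 of the range, within a group whose SD was 0.04.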

How the results depend on the processing

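No collagen gene passed the threshold under any alternative run except scaling to the array median, where 1 did, Col20a1 (0.44, limma adjusted p = 0.0474). That scaling moved the median of all genes to 0.14, and gave a median of 0.08 for the other types, 0.09 for type IV and 0.06 for the fibrillar genes. For the scaling and the background correction, turned signs are listed only for the genes given on every array. Over all 35 collagen genes, 24 signs were negative in the main fit, 11 with that scaling and 18 with quantile normalization. Scaling to the array median turned the sign of Col1a1 (0.09), Col1a2 (0.13), Col4a1 (0.09), Col4a2 (0.09), Col6a1 (0.09), Col6a3 (0.06) and Col14a1 (0.07). Quantile normalization gave a median of 0.04 for the other types and turned Col14a1 (0.04). The normexp background correction turned Col1a2 (0.04). For Col15a1, the mean of all probes gave -0.22, and leaving out saline 1 and P. gingivalis 3 gave -0.01. With 1 array left out at a time, 0 collagen genes passed, but only 2 to 6 of all 22221 genes passed in these fits. The sign of 14 of the 35 collagen genes turned at least once, 6 of them genes given on every array: Col1a1 (-0.24 to 0.09), Col1a2 (-0.14 to 0.11), Col6a1 (-0.19 to 0.06), Col6a3 (-0.27 to 0.08), Col12a1 (-0.07 to 0.13) and Col14a1 (-0.22 to 0.08). The other 8 were Col11a1, Col23a1, Col24a1, Col26a1, Col2a1, Col4a4, Col6a4 and Col9a2. The medians ran from -0.25 to -0.02 for the fibrillar genes, -0.10 to -0.01 for type IV and -0.13 to 0.0 for the other types. The cause was not tested. Under the 75th percentile Col18a1 ranged from -0.20 to -0.15 and Col20a1 from 0.22 to 0.36 in those fits. Without a filter on dim probes all 44 genes were tested and 0 passed, beside 5154 of all 36895 genes in that fit. The smallest limma adjusted p of a collagen gene there was 0.0626, for Col10a1, whose probe was above background on 0 arrays. With outlier-flagged spots set missing, an alternative chosen after seeing the data, 36 collagen genes were tested and 0 passed, beside 26 of all 22271 genes.

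Deviations of arrays with the same replicate number correlated at 0.064, -0.058, -0.041 and 0.231 for numbers 1 to 4, so most numbers did not go together and the number was not taken as a pairing. With the replicate block 0 collagen genes and 0 genes in all passed, and 4 of 35 collagen genes had an unadjusted limma p under 0.05. The share of all genes at that limit was not counted for this fit, so the 4 have no background beside them. Signal near background limits Col15a1, Col4a4, Col6a4, Col9a1, Col19a1 and P4ha3, which were not above background on all arrays. The same holds for Loxl4, Mmp8, Lair1 and Gp6, which entered the sign counts of their lists.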
